A study of Danio rerio with 6 samples.

Results

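The zebrafish embryo begins gastrulation at the shield stage, and at 24 hours after fertilisation (24hpf) its organs are forming. The tRNA reads of these stages were compared through 2 of the 6 libraries of the study, shield and 24hpf, each made from wild-type embryos of the TU strain with no treatment. The members were every feature of the deposited tables: 38 pairs of amino acid and anticodon (19 amino acid labels, with initiator methionine apart), 3004 of the 3021 listed read sequences that had reads at shield or 24hpf, and 22 mitochondrial tRNAs. Each library came from RNA pooled from 50 to 100 whole embryos, so the cell types of an embryo were not separated, and fewer cells of a type and less RNA per cell cannot be told apart. RNA of tRNA size was cut from a gel, its amino acids and some base modifications that stop reverse transcription were removed with enzymes and alkaline buffer, and it was sequenced. The listed cytoplasmic reads were 60 to 95 nt long. The other stages of the study, egg, 1cell, 256cell and sphere, serve only to show how large differences between neighbouring stages were.

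Transfer RNAs bring amino acids to the ribosome and read codons through the 3 bases of their anticodon. Vertebrate genomes hold many copies of most tRNA genes, and copies with the same anticodon but another body sequence are called isodecoders. In the cytoplasm RNA polymerase III makes them and an enzyme adds the tail CCA at the 3' end, where the amino acid is loaded. Mitochondria use a separate set that is cut from long transcripts of their own genome. The embryo starts with tRNAs laid down in the egg and later adds those made from its own genes.

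Sequences of families discussed below are shown here, though not of every family named. Each is the leading deposited read of a family, a group of reads of 1 anticodon joined where they shared an exact stretch of 50 bases, and families are numbered by their mean RPM (reads scaled to the same library size) at shield and 24hpf. They are given 5' to 3' with T for U, as deposited. Capitals mark the bases in which a family differs from family 1 of its anticodon, and in family 1 the matching bases. In Val-TAC they mark the 3 bases found at the place of the anticodon. Families were formed from reads, and whether a family is a gene copy or a reading of another copy with base changes from the sequencing was not tested.
Gly-GCC family 1: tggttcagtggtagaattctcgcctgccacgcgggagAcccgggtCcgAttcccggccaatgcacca
Gly-GCC family 2: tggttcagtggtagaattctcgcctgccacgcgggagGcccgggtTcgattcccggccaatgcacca
Gly-GCC family 4: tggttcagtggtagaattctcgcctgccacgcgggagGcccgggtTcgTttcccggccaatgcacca
Gly-CCC family 1: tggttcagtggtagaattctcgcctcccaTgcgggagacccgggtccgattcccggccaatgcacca
Gly-CCC family 2: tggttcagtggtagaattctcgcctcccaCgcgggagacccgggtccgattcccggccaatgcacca
Gln-TTG family 1: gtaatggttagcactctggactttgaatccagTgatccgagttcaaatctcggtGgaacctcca
Gln-TTG family 2: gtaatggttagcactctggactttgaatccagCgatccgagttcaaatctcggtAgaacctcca
Val-TAC family 1: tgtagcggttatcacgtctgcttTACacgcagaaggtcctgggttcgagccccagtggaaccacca
Val-TAC family 2: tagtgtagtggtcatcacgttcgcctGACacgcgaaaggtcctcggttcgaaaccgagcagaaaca
Cys-GCA family 1: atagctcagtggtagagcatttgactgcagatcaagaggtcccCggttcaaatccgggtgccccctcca
Cys-GCA family 2: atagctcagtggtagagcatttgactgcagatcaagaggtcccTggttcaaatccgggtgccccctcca
Pro-TGG family 1: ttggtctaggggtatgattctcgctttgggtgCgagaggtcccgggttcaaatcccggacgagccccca
Pro-TGG family 2: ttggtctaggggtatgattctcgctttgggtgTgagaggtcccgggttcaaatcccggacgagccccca
Glu-TTC family 1: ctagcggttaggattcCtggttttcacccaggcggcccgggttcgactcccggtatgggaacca
Glu-TTC family 2: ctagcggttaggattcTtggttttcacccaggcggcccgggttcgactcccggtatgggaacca
Asn-GTT family 1: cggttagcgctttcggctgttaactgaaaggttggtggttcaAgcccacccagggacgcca
Asn-GTT family 2: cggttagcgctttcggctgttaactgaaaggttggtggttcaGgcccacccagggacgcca
His-GTG family 1: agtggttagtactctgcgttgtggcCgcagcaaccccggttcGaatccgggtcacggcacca
His-GTG family 3: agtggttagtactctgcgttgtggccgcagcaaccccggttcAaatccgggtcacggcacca
His-GTG family 4: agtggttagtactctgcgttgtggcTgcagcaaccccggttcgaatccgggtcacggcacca

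The shield library held 4211882 reads and the 24hpf library 6148047. Cytoplasmic tRNA reads made up 731790 RPM at shield and 775998 RPM at 24hpf, and 16.8% and 18.5% of the reads were in neither table. Reads of His-GTG, the tRNA for histidine, were 84.7% of the cytoplasmic reads at shield and 89.0% at 24hpf, so all other tRNAs together stood at 112157 RPM and 85456 RPM. Ala-TGC, the only alanine label, had 20 and 2 reads, and no cytoplasmic label named phenylalanine or isoleucine. Abundance below means abundance in reads, and whether it follows the amount of each tRNA in the embryo was not tested. Reads ending in CCA were 86.1% and 88.8% of the cytoplasmic reads, reads of at least 70 nt were 0.558% and 0.306%, and the mean length was 63.2 nt and 63.0 nt. There was 1 library per stage, so differences have no replicate check and no p-value is given. Intervals are at the 95% level and cover counting error alone, and they are too narrow even for that, since reads copied by PCR and not tagged by molecule are not independent.

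Among the cytoplasmic tRNAs, Val-TAC was higher at 24hpf by more than any other, and Asn-GTT was lower by more than any other of those compared. The comparison used the log2 ratio of shares of the cytoplasmic total, 24hpf over shield, with 1 RPM added to each sum, for the 32 of 38 anticodons whose mean reached 10 RPM. At least 2-fold higher were 2 anticodons (6.25% of those compared), and at least 2-fold lower were 10 (31.2%). The median log2 ratio over the 32 was -0.55, and leaving His-GTG out of the total raised every ratio by 0.48, to a median of -0.07. On that second scale 2 were at least 2-fold higher (6.25%) and 5 lower (15.6%), so the number of lower tRNAs depends on how the histidine reads are treated.

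Val-TAC, which reads valine codons ending in A, went from 828 RPM at shield to 3653 RPM at 24hpf. Its log2 ratio of shares was 2.06 (interval 2.01 to 2.11) and 2.53 without His-GTG in the total. In egg, 1cell, 256cell and sphere it stood at 314, 227, 319 and 407 RPM, so the 24hpf value lay above all other libraries. Trp-CCA, the tryptophan tRNA, was measured through 1 read sequence, with 40 reads at shield and 171 at 24hpf. It went from 9.50 to 27.8 RPM, a log2 ratio of 1.37 (0.96 to 2.00), and with 10 RPM added in place of 1 it was below 2-fold at 0.87.

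Asn-GTT, the asparagine tRNA, went from 2398 RPM to 408 RPM, a log2 ratio of -2.64 (-2.70 to -2.58). It had stood between 1038 and 3115 RPM in the 4 earlier libraries, so 24hpf held its lowest value. Its reads ending in CCA were at -2.49 and the others at -2.90, so both kinds were lower. Gly-CCC, a glycine tRNA, went from 1206 to 274 RPM (-2.22, interval -2.31 to -2.14).

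Rarer tRNAs on the lower side were valine Val-CAC, from 37.5 to 8.46 RPM (log2 ratio -2.11), lysine Lys-TTT, from 107 to 26.3 RPM (-2.06), and proline Pro-AGG, from 41.3 to 10.7 RPM (-1.93). At 24hpf they had 52, 162 and 66 reads. These 3, Asn-GTT and Gly-CCC were the 5 that stayed at least 2-fold lower without His-GTG in the total, at -1.63, -1.58, -1.46, -2.16 and -1.74. Lys-TTT was measured through 1 read sequence. It had stood at 7.33, 16.9 and 11.4 RPM in egg, 1cell and 256cell and at 87.4 RPM at sphere, so 24hpf was not its lowest value. The remaining 5 lower tRNAs lay near the 2-fold line on the second scale or inside it. Threonine Thr-CGT was at -1.44 by share and -0.96 without His-GTG, and leucine Leu-CAA at -1.28 and -0.81. The leading family of Thr-CGT holds GGT, another triplet than the label, at the place of the anticodon, and the label was kept. For Leu-CAA the search found TCC, but it does not allow for the long variable arm of leucine tRNAs. The Leu-CAA label was thus not tested. Pro-CGG was at -1.07 and -0.59, Pro-GGG at -1.05 and -0.57, and Val-AAC at -1.004 and -0.53. Just inside the 2-fold line lay Asp-GTC, the aspartate tRNA and the second most abundant in reads, which went from 40117 to 21354 RPM (-0.99, and -0.52 without His-GTG). Gln-TTG, a glutamine tRNA, lay there too (-0.98 and -0.50).

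The other abundant tRNAs differed less. His-GTG was at 0.07 by share, with 619633 RPM at shield and 690541 RPM at 24hpf. Glutamate Glu-TTC (19318 and 20596 RPM) was at 0.01 and arginine Arg-ACG (4118 and 4412 RPM) at 0.01, and both counting intervals included 0. Lys-CTT was at -0.32, Gln-CTG at -0.37 and Gly-GCC at -0.70. Glu-CTC was at 0.27 (0.20 to 0.33), with 662 and 845 RPM, the highest share of the 6 libraries. iMet-CAT, the initiator tRNA that starts every protein chain, was at -0.01 (-0.23 to 0.21), with 68.4 and 72.1 RPM. Without His-GTG in the total Lys-CTT turned to 0.15 and Gln-CTG to 0.10, while iMet-CAT was at 0.47.

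**Figure D1:**
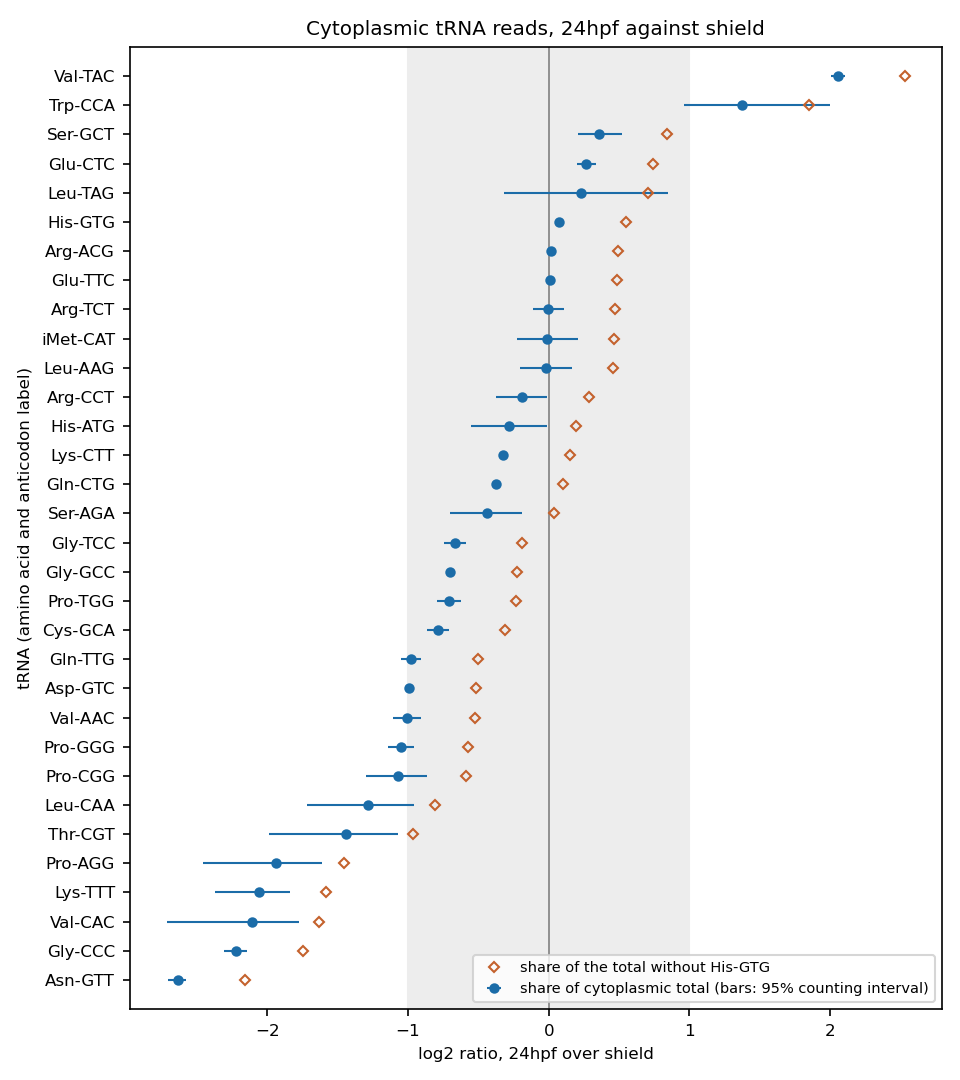
Log2 ratio of 24hpf over shield for the 32 cytoplasmic anticodons whose mean reached 10 RPM. Filled points are shares of the cytoplasmic total with 95% counting intervals as bars, open diamonds leave His-GTG out of the total, and the grey band marks differences below 2-fold; Val-TAC lies at 2.06 and Asn-GTT at -2.64.

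Summed over the anticodons of an amino acid, 16 of 19 labels passed the filter. At least 2-fold higher were valine (log2 ratio 1.47) and tryptophan (1.37), or 12.5%, and at least 2-fold lower were asparagine (-2.64) and threonine (-1.65), again 12.5%. The valine sum, from 1330 to 3906 RPM, joined anticodons that differed in opposite directions, since Val-TAC was higher while Val-AAC and Val-CAC were lower. Proline was at -0.91, glycine at -0.80, cysteine at -0.78, glutamate at 0.02 and arginine at 0.01. The 6 anticodons below the filter were Ala-TGC, Tyr-GTA, Thr-AGT, Thr-TGT, Met-CAT and Ser-TGA, each with at most 51 reads at shield and 49 at 24hpf.

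By the chemistry of the amino acid, the lists are described by their counts and medians beside those of all 32 anticodons. Of the 32 anticodons 24 were below 0 by share and 16 without His-GTG, and 31.2% and 15.6% were at least 2-fold lower. All 4 proline tRNAs were lower, 3 of them at least 2-fold, with a median of -1.06 by share and -0.58 without His-GTG, where Pro-AGG alone stayed past 2-fold. Of the amide tRNAs (Asn, Gln) 1 of 3 was at least 2-fold lower, with a median of -0.98 (-0.50 without His-GTG), and of the glycine tRNAs 1 of 3, with a median of -0.70 (-0.22). In the branched list (Val, Leu) 1 of 6 was higher and 3 were lower, and its median of -0.51 (-0.04) was opposite to its summed share at 1.37, which Val-TAC carries. Among the basic tRNAs (Arg, Lys, His) 1 of 7 was lower, with a median of -0.19 that turned to 0.28 without His-GTG. The acidic list (Asp, Glu) had 0 of 3 past 2-fold and a median of 0.01 (0.48). Its summed share was lower, at -0.57, with Asp-GTC at -0.99. Of the hydroxyl list (Ser, Thr) 1 of 3 was lower, with a median of -0.44 that turned to 0.04, and the sulphur list (Cys, iMet) had 0 of 2 past 2-fold and a median of -0.40 that turned to 0.08. Leucine and serine tRNAs, which share a long variable arm (type II), had 1 of 5 lower and a median of -0.02 that turned to 0.46. The aromatic list had Trp-CCA as its only member past the filter. The 9 tRNAs often reported as donors of 5' fragments cut at the anticodon had 3 lower (Gly-CCC, Val-CAC, Val-AAC) and 0 higher, near the 31.2% of all anticodons, with a median of -0.70 (-0.22). Without His-GTG Val-AAC was inside the 2-fold line.

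Inside several anticodons the leading family at shield was not the leading one at 24hpf, or led by a different margin. Gln-TTG family 1 held 92.0%, 92.7%, 94.7% and 90.6% of the Gln-TTG reads from egg to sphere, 70.3% at shield (exact Clopper-Pearson interval 68.7 to 71.8) and 26.5% at 24hpf (24.8 to 28.2). Family 2, which differs from it in 2 bases, went from 28.6% at shield to 73.3% at 24hpf. In RPM family 1 went from 588 to 119 and family 2 from 239 to 330, so the sum over the anticodon joins a lower and a higher part.

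Gly-GCC showed the same kind of exchange. Family 1 held 70.8% of its reads at shield and 31.5% at 24hpf, after 79.8% to 89.1% in the 4 earlier libraries. Family 2 went from 10.8% to 48.6%, after 1.97% to 3.53% earlier. In RPM family 1 went from 6419 to 1864 (log2 ratio of shares -1.87) and family 2 from 983 to 2879 (1.47). Family 4, named after its values were seen, carries the capitals of family 2 and 1 base more and went from 142 to 479 RPM (1.66).

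The exchange in Gly-GCC was also described by 2 places in the sequence, which were picked after the values were seen. Families 1 and 2 differ in these places, so the split restates the exchange between them. Sequences holding GAGACCC, between the anticodon stem and the T arm, went from 7888 to 2495 RPM (log2 ratio -1.75), and those holding GAGGCCC from 1153 to 3416 RPM (1.48). The latter had stood between 170 and 412 RPM from egg to sphere, so their 24hpf sum was the highest of the 6 libraries. Of 68 single sequences with GAGACCC that passed the filter, 57 were at least 2-fold lower and 0 higher, and of 28 with GAGGCCC 24 were higher and 1 lower. Over all 1759 single sequences compared 40.5% were lower and 2.39% higher. Sequences with the same run overlap and share their families, so the counts add no independent support. In the T arm itself, the hairpin towards the 3' end, sequences with GGGTCCG were at -1.88 and those with GGGTTCG at 1.00. Gly-CCC reads had 0 sequences with GAGGCCC, and those with GAGACCC went from 1141 to 261 RPM (-2.21). Without His-GTG in the total each of these ratios is 0.48 higher and keeps its sign.

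Val-TAC joins reads of different kinds under its label. Family 1, with TAC at the anticodon, went from 542 to 3582 RPM (log2 ratio 2.64, interval 2.58 to 2.70) and from 65.5% to 98.1% of the reads so labelled. Family 2, with GAC at that place and a body that differs in 15 of the 63 bases compared, went from 278 to 69.3 RPM (-2.07) and from 33.5% to 1.90%. In the 4 earlier libraries family 1 had held 36.7% to 48.7% and family 2 47.4% to 52.4%. Reads ending in CCA were 76.05% of Val-TAC at shield and 98.8% at 24hpf. Within family 1 100% of the reads ended in CCA in both libraries, and within family 2 31.4% and 37.8%.

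In Cys-GCA, Pro-TGG and Glu-TTC the leading family held a larger part of the reads at 24hpf. Cys-GCA family 1 went from 69.2% to 79.5% of its reads and family 2, which differs in 1 base, from 28.4% to 8.49%, while in egg they had held 46.6% and 50.2%. In RPM Cys-GCA family 1 was lower too, from 444 to 314, and family 2 went from 182 to 33.5. Pro-TGG family 1 went from 45.7% to 64.9% and family 2 from 20.3% to 5.93%. Glu-TTC family 1 went from 83.1% to 91.1% and family 2 from 9.35% to 4.51%. Pro-TGG family 1 stood at 251 and 231 RPM and Glu-TTC family 1 at 16056 and 18759 RPM. Pro-CGG went the other way, with family 1 from 61.0% to 23.5% of its reads and family 2, which differs in 1 base, from 13.8% to 66.2%, both named after their values were seen.

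Asn-GTT also moved away from its leading family. Its family 1 went from 2179 to 314 RPM (-2.87) and from 90.9% to 76.9% of the label, and family 2 from 153 to 15.0 RPM (-3.36). Family 3, named after its values were seen, went from 53.9 to 74.3 RPM (0.37), and its read could not be aligned to that of family 1. The leading family of Ser-GCT went from 66.7% to 57.2%, and that of Val-AAC from 95.3% to 91.2%. Gly-CCC, although 4.66-fold lower in share as a whole, kept its proportions, with family 1 at 59.4% and 62.2% and family 2 at 22.6% and 25.3%.

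Over the 17 anticodons whose mean reached 100 RPM and more than 1 family, the leading family's share was higher at 24hpf in 12. In every step the family followed was the leading one by mean RPM at shield and 24hpf. The median size of the difference was 5.35 percentage points and the largest 43.8, in Gln-TTG. From sphere to shield the same measure had a median of 5.42 points and a largest value of 20.4, and in the 3 steps before it the medians were 2.27, 3.17 and 2.54 points. The share was higher at the later stage in 13 of 17 from sphere to shield, and in 5, 11 and 5 in the 3 steps before it.

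**Figure D2:**
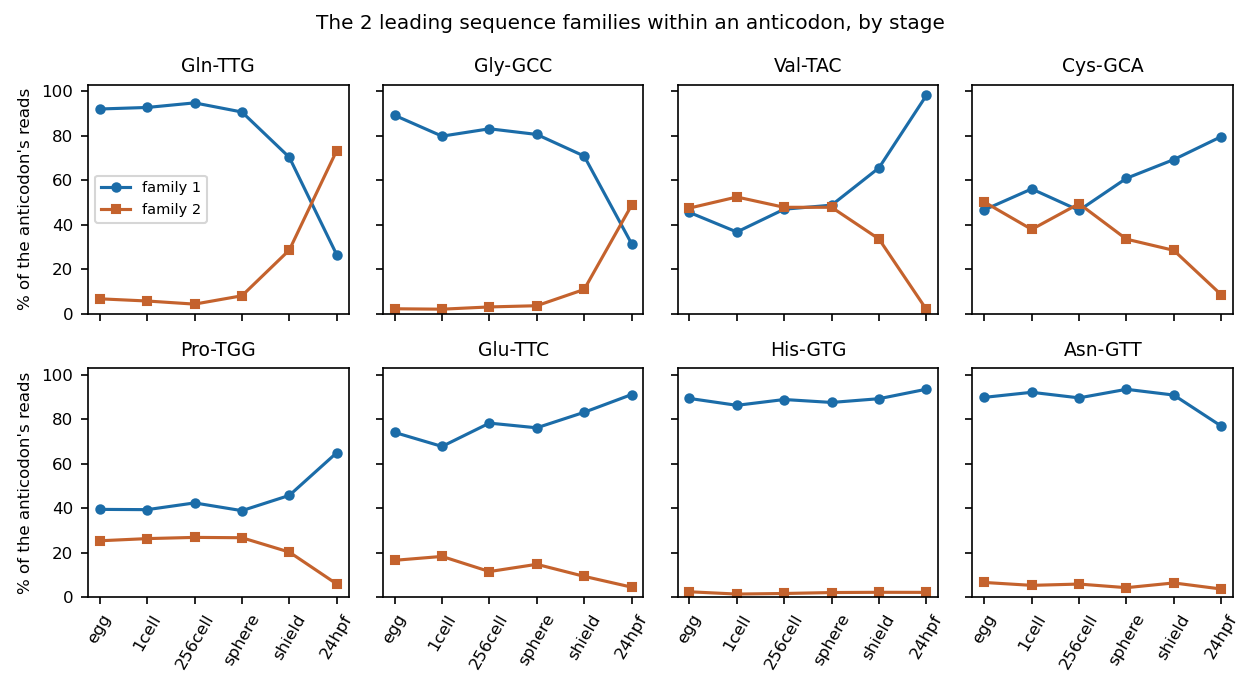
Share of an anticodon's reads held by its 2 leading families at each of the 6 stages, 1 library each, for 8 anticodons. In Gln-TTG and Gly-GCC the lines cross between shield and 24hpf, and in Val-TAC family 1 reaches 98.1%.

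Minor families as a whole held a smaller share of the cytoplasmic reads at 24hpf, mostly through those of His-GTG. Of 228 families with a mean of at least 10 RPM, 7 were at least 2-fold higher (3.07%) and 98 lower (43.0%), and the median was -0.74. Without His-GTG in the total 10 were higher and 75 lower, with the His-GTG families still counted although that total does not hold them. The 31 leading families held 89.3% of the cytoplasmic reads at shield and 93.1% at 24hpf, and the 197 minor ones 10.6% and 6.84%. In egg, 1cell, 256cell and sphere the minor families had held 10.8%, 13.8%, 11.2% and 12.4%, so 24hpf had the lowest value of the 6 libraries. Most of the difference from shield lay in the 100 minor families of His-GTG, which went from 9.10% to 5.78%. The 97 of other anticodons went from 1.512% to 1.059%. Their summed log2 ratio of -0.51 was near the -0.47 of the leading families outside His-GTG. Leading families were picked by their reads at shield and 24hpf, which favours a low minor share in those libraries over the earlier ones. Families depend on the joining rule, and with a stretch of 45 bases 57 of 155 were lower.

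Minor families were also sorted by how they differ from the leading family. The 26 families that differ by a gap alone had a median log2 ratio of 0.02 and a range of -0.79 to 0.36, with 0 past 2-fold. They held 0.536% of the cytoplasmic reads at shield and 0.531% at 24hpf. The 163 families that differ by substitutions and no gap had a median of -1.23, and 89 of them were at least 2-fold lower. With 1 substitution the median was -0.84 (112 families), with 2 it was -1.66 (38) and with 3 or more it was -1.53 (13). The classes differ in their makeup. Of the 26 gap families 22 belonged to His-GTG, and of the 163 substitution families 74 did, with a median of -0.48, against -1.59 in the 89 of other anticodons. With 1 substitution the medians were -0.02 in His-GTG and -1.51 elsewhere. With 2 substitutions the median outside His-GTG was -1.96 (15 families), but their summed reads were at 0.59. The 4 gap families of other anticodons had a median of -0.47. Outside these classes were 5 families with both a gap and a substitution (median 0.15, 1 at least 2-fold higher). A further 3 had fewer than 50 aligned bases or no difference in the aligned part.

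Within His-GTG the 100 minor families fell into a group near 0 and a spread of lower ones. Between -0.5 and 0.5 on the log2 scale lay 63, and 29 were at least 2-fold lower. The 22 gap families ranged from -0.15 to 0.36, the 50 families with 1 substitution had a median of -0.02 with 10 at least 2-fold lower, and the 23 with 2 substitutions had a median of -1.57 with 18 lower. His-GTG family 2, with 1 substitution, was at 0.05, with 13497 and 14803 RPM. Families 3 and 4, shown above and named after their values were seen, went from 8906 to 3083 RPM (-1.61) and from 8006 to 2416 RPM (-1.81). The 29 lower families together held 4.43% of the cytoplasmic reads at shield and 1.49% at 24hpf, a fall set by how they were picked. Their part had been 4.63%, 6.68%, 5.34% and 5.69% in the libraries from egg to sphere. Outside His-GTG 60 of 97 minor families were at least 2-fold lower and 5 higher, with a median of -1.502. Their summed reads went from 11061 to 8217 RPM (-0.51), near the -0.47 of the summed leading families outside His-GTG.

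The 7 higher families were Val-TAC family 1, Gly-GCC families 2, 4 and 13, Trp-CCA family 1, Cys-GCA family 3 and Pro-CGG family 2. Cys-GCA family 3 went from 15.0 to 47.0 RPM (1.50), Pro-CGG family 2 from 13.5 to 32.5 RPM (1.12) and Gly-GCC family 13 from 8.78 to 31.7 RPM (1.66).

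**Figure D3:**
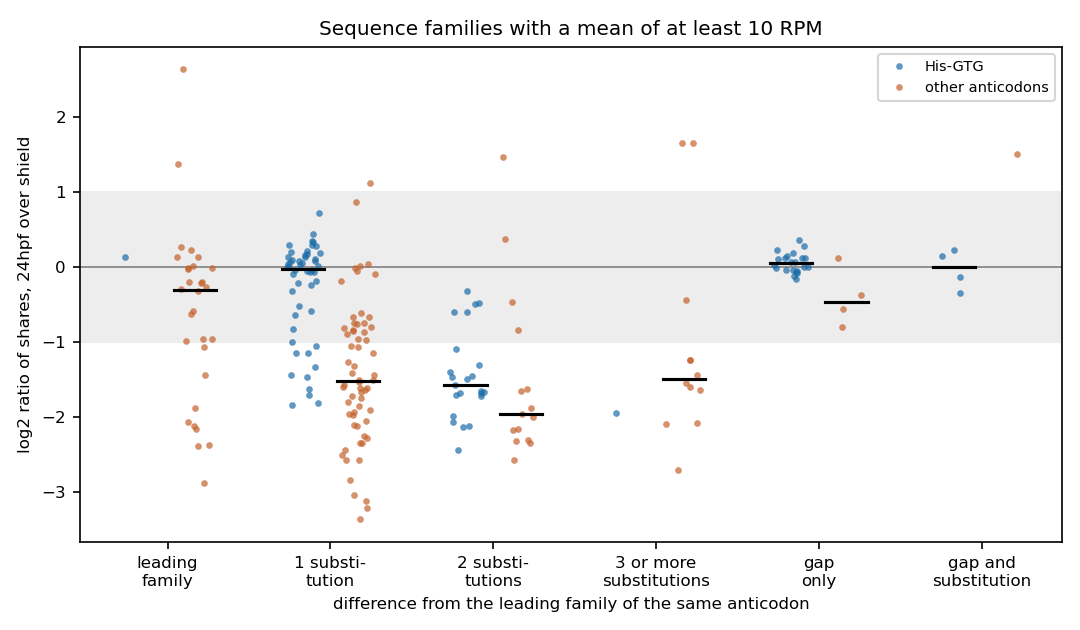
Log2 ratio of shares, 24hpf over shield, for sequence families with a mean of at least 10 RPM, by how they differ from the leading family of the same anticodon. Left out are 3 with fewer than 50 aligned bases or no difference in the aligned part. Blue points are His-GTG and orange points other anticodons, black lines are medians of classes with more than 2 families, and the 22 gap families of His-GTG lie between -0.15 and 0.36.

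Of 3021 single read sequences 1759 had a mean of at least 10 RPM, 42 were at least 2-fold higher (2.39%) and 713 lower (40.5%), and the median was -0.73. Without His-GTG in the total 116 were higher and 423 lower, with His-GTG reads still counted, so the size of the excess depends on the scaling. With median-ratio scaling 247 were higher and 255 lower. That scaling centres the ratios of the compared reads, so near-equal counts follow from it and do not test the excess. These reads overlap and share their families, so they are not independent. Among those of at least 100 RPM the 8 highest were 6 reads of Val-TAC family 1 and 1 read each of Gly-GCC families 2 and 4. The highest, a Val-TAC read of 63 nt, went from 57.7 to 611 RPM (log2 ratio 3.30), and the read printed above from 150 to 1036 RPM (2.70).

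The 8 lowest held 3 reads of Asn-GTT family 1, 2 of Gly-GCC family 1, 2 of His-GTG family 4 and 1 of Gly-CCC family 1. The lowest, an Asn-GTT read of 60 nt, went from 200.1 to 10.1 RPM (-4.27), after 8.72 to 12.3 RPM in egg, 1cell and 256cell and 99.3 RPM at sphere. The Asn-GTT read printed above went from 331 to 33.8 RPM (-3.34), after 50.2 to 70.7 RPM in those 3 libraries and 295 RPM at sphere. These reads were thus high at sphere and shield and low in the other 4 libraries.

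The 5 most abundant reads all belonged to His-GTG family 1, with lengths of 62 to 66 nt and log2 ratios of 0.05 to 0.47. Only 48 sequences with reads at shield had none at 24hpf, none of them with more than 17 reads, and 29 had reads at 24hpf alone, with at most 34. A count of 0 allows up to 0.712 RPM at shield and 0.488 RPM at 24hpf.

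Of 20 anticodons whose mean reached 100 RPM, the part of reads ending in CCA was lower at 24hpf in 15 and higher in 4. Over all reads other than His-GTG it was not lower, at 40.1% at shield and 40.7% at 24hpf. In Val-AAC it went from 17.7% to 7.76%, and its reads with CCA were at -2.14 while those without were at -0.84. In Gly-GCC it went from 87.3% to 78.7%, with log2 ratios of -0.85 for reads with CCA and 0.05 for those without. In Gln-CTG it went from 80.3% to 73.7%, and the ratios were -0.50 and 0.04. Asp-GTC was lower with and without CCA, at -1.21 and -0.95, and its family 1 was lower at each of the 14 read lengths whose reads together had a mean of at least 100 RPM, from -0.60 to -2.08. Val-TAC family 1 was higher at each of 4 lengths, by 2.38 to 3.30. His-GTG family 1 was between -0.02 and 0.36 at lengths of 60 to 66 nt and between -0.71 and -0.94 at 67 to 69 nt.

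Mitochondrial tRNAs made up a smaller part of the 24hpf library. Together they stood at 100165 RPM at shield and 39233 RPM at 24hpf, 2.55-fold lower. Over both tables together they held 12.04% at shield and 4.81% at 24hpf. The difference is smaller with His-GTG left out of the listed reads, from 47.2% to 31.5%. Of the 132 mitochondrial read counts recovered from the 6 libraries 125 were even, against 49.6% of the cytoplasmic counts. If 2 reads stand for 1 in that table, the parts become 6.41% and 2.47%. Why the counts were even was not tested, so the mitochondrial and cytoplasmic levels may not be on one scale, and the intervals below count pairs of reads.

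In RPM 19 of the 22 were at least 2-fold lower (86.4%) and 0 higher (0%). The most abundant, trnV for valine, went from 42492 to 18573 RPM. The next, trnL2 for leucine, went from 27873 to 10975 RPM, and trnH for histidine from 8743 to 3528 RPM. All tRNAs but trnS2 had their lowest RPM of the 6 libraries at 24hpf. The 3 that were not 2-fold lower were trnI for isoleucine, from 454 to 300 RPM (log2 -0.60), trnK for lysine, from 57.5 to 31.6 RPM (-0.84), and trnS2, a serine tRNA, from 46.5 to 50.8 RPM (0.12).

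Against the mitochondrial total most proportions were kept. By share 1 of 22 was at least 2-fold higher (4.55%) and 2 lower (9.09%), and the median was 0.04. The higher one was trnS2, at 1.47 (1.10 to 1.86). The lower ones were trnR for arginine, which went from 8.18% to 3.62% of the mitochondrial reads (log2 -1.18, interval -1.23 to -1.13), and trnG for glycine, from 0.155% to 0.0531% (-1.49, interval -1.96 to -1.16). In RPM trnR went from 8196 to 1419 and trnG from 155 to 20.8, after 12112 to 22158 RPM and 244 to 383 RPM in the 4 earlier libraries.

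The other 19 lay within 2-fold of their shield proportions. trnV held 42.4% and 47.3% of the mitochondrial reads (0.16), trnL2 27.83% and 27.97% (0.01), trnH 8.73% and 8.99% (0.04) and trnL1, for leucine too, 3.35% and 3.45% (0.04). Asparagine trnN was at -0.32, methionine trnM at -0.29, cysteine trnC at -0.49, proline trnP at -0.50, phenylalanine trnF at -0.30 and glutamate trnE at -0.18. On the other side trnI was at 0.75, trnK at 0.51, tryptophan trnW at 0.30, glutamine trnQ at 0.20 and threonine trnT at 0.11. Alanine trnA was at 0.04, tyrosine trnY at 0.07 and aspartate trnD at -0.05. The intervals of these 3 and of trnL1, trnL2, trnQ and trnT included 0. The rarest, the serine tRNA trnS1, had 6.65 and 2.28 RPM and an interval of -1.74 to 1.21.

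By place on the mitochondrial genome no block moved as one. The median log2 ratio of shares was -0.07 for the pair beside the rRNA genes (trnF, trnV), 0.20 for trnI, trnQ and trnM, 0.04 for the WANCY block (trnW, trnA, trnN, trnC, trnY) and -0.18 for the 3 beside the cytochrome b gene (trnT, trnP, trnE). The 7 listed between the COX1 and ND5 genes (trnS1, trnS2, trnD, trnK, trnG, trnR, trnH) had a median of 0.04 and held all of those past 2-fold, 1 higher and 2 lower. trnG and trnR, both lower, follow each other among the tRNA genes in the order of the RefSeq gene table. The 11 tRNAs listed for the main coding strand had a median of 0.04 with 2 lower. The 7 listed for the opposite strand had a median of -0.18 with 0 past 2-fold. Left out of both strand lists were trnL1, trnL2, trnS1 and trnS2, the last of which was the 1 that was higher. Leucine was also left out of the place lists. In the same gene order trnL1 (0.04) follows trnV, and trnL2 (0.01) follows trnS2.

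**Figure D4:**
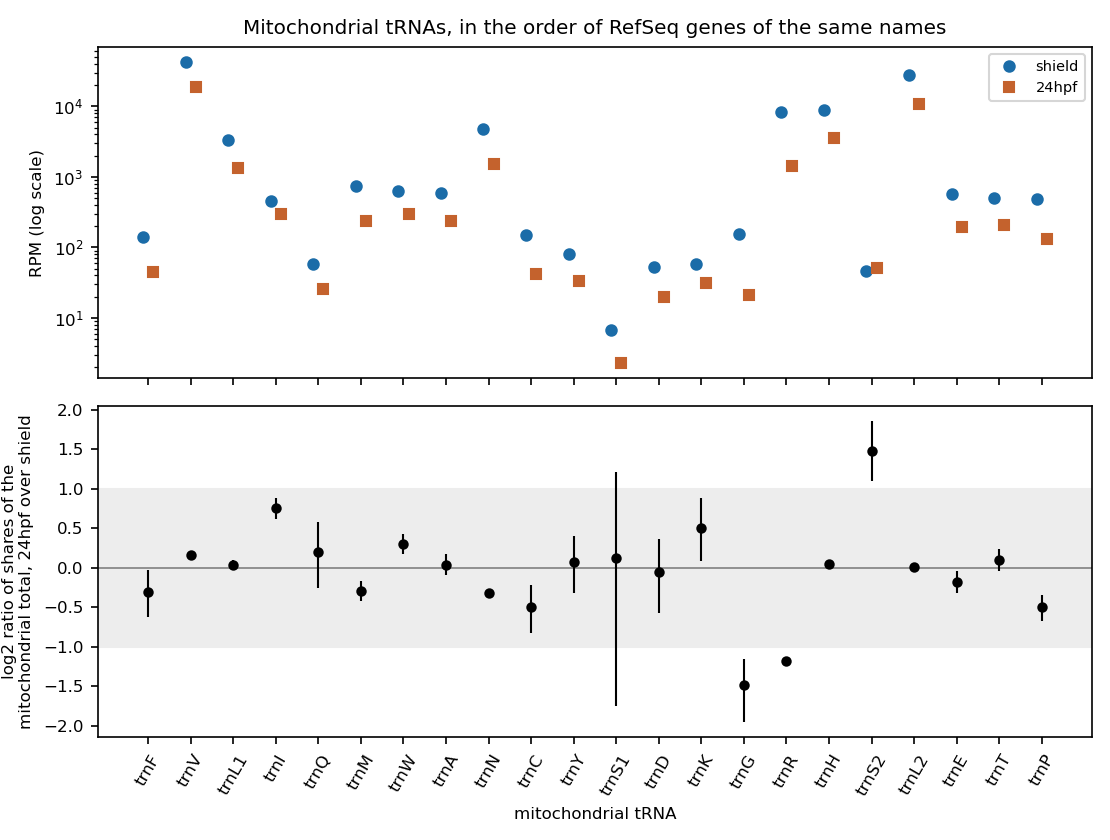
The 22 mitochondrial tRNAs in the order of the RefSeq genes of the same names. The upper panel gives RPM at shield and 24hpf on a log axis, and the lower panel the log2 ratio of shares of the mitochondrial total with 95% counting intervals from pairs of reads; trnS2 lies at 1.47, trnR at -1.18 and trnG at -1.49.

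Set beside the earlier steps between neighbouring stages, the step from shield to 24hpf was among the larger ones for cytoplasmic anticodons by share. These shares keep His-GTG in the total, and its part was 89.1%, 81.7%, 87.1%, 84.4%, 84.7% and 89.0% from egg to 24hpf. Leaving it out raised every ratio from shield to 24hpf by 0.48. Whether the order of the steps holds without His-GTG was not tested. Over the same 32 anticodons the median size of the log2 ratio was 0.70, against 0.84 from egg to 1cell, 0.46 from 1cell to 256cell, 0.28 from 256cell to sphere and 0.60 from sphere to shield. Its range, from -2.64 to 2.06, reached further down than that of any earlier step, where the lowest was -2.001. At 24hpf 19 of the 32 had their lowest share of the 6 libraries and 3 (Val-TAC, Glu-CTC and Trp-CCA) their highest. This count too depends on the histidine reads. Without His-GTG in the total Gln-CTG (0.10), iMet-CAT (0.47), Leu-AAG (0.46), His-ATG (0.20) and Ser-AGA (0.04), all among the 19, were above shield. On that scale 24hpf was not their lowest value, while the rest of the 19 stayed below shield. For mitochondrial proportions the median size was 0.24, against 0.64 from egg to 1cell, 0.52, 0.17 and 0.17 in the steps that followed. The mitochondrial total was 2.01-fold lower at shield than at sphere before it was 2.55-fold lower at 24hpf than at shield. These steps share libraries, so their values are not independent of each other.

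**Figure D5:**
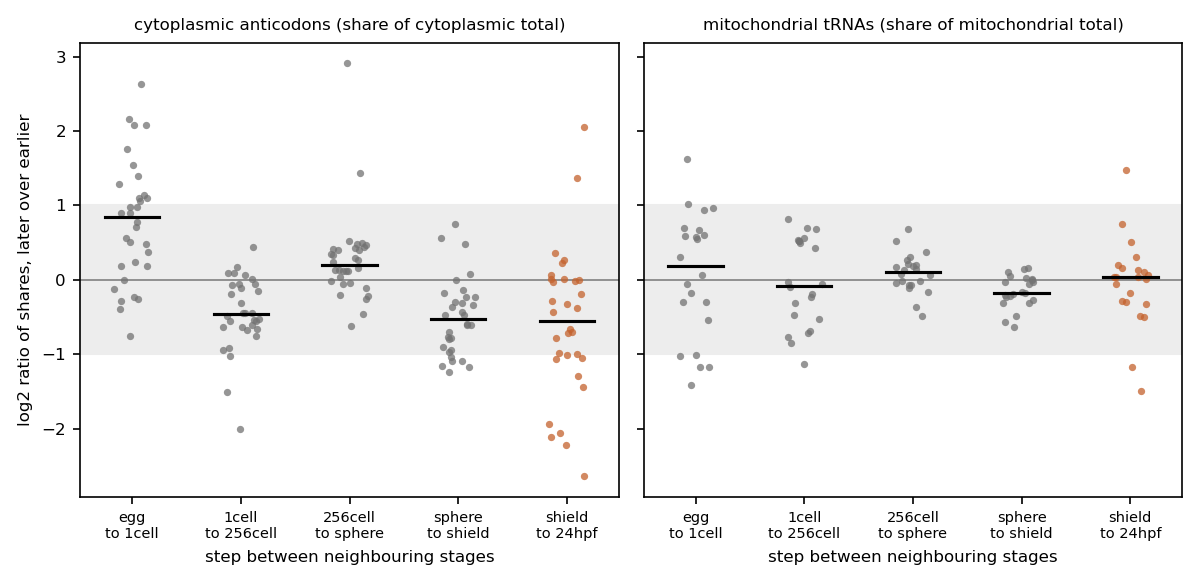
Log2 ratio of shares for each step between neighbouring stages, with 32 cytoplasmic anticodons on the left and 22 mitochondrial tRNAs on the right. Points are single tRNAs, black lines are medians, and the step from shield to 24hpf is in orange, with cytoplasmic ratios from -2.64 to 2.06.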

How the data were processed

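Per the labels' protocols, RNA of 60 to 120 nt (60 to 100 nt in the sample descriptions) was deacylated, end-repaired and treated with ALKB enzymes. Cutadapt 3.4, Bowtie2 2.4.2 and the build GRCz11 are named per the submitters' processing notes. Not given in the sources used here are their settings and how reads that match several genes were handled. RPM is the unit of both deposited tables, and every value was a whole multiple of the RPM of 1 read within 0.01 reads (100% of values), which gave the read counts and library totals. A count test was not run, because 1 library per stage leaves no residual degrees of freedom.

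RPM was summed per label, 1 RPM was added, and sums were divided by the table total; features with a mean of at least 10 RPM were compared by a 2-fold size, all 22 mitochondrial tRNAs being kept. Ratio intervals are exact binomial and share intervals Clopper-Pearson, both at 95%; the floor is 3 reads. Minor families were aligned to the leading one of their anticodon with Biopython 1.88. Of 228 families 191 had the labelled anticodon in the loop, and in 17 no loop was found. In 1, the leading family of Arg-ACG, the loop held GCG, with G in the place of the first A. The other 19 gave another triplet, among them the leading family of Thr-CGT (GGT). The loop was sought at a set distance from the 3' end that does not allow for a long variable arm. The triplets found in the leading families of Leu-AAG (CAG), Leu-TAG (CAG) and Leu-CAA (TCC) therefore do not test their labels. Labels were kept as deposited. RefSeq gave only names and gene order, since its assembly differs from the authors' build. The names trnL1, trnL2, trnS1 and trnS2 do not show their anticodon. Leucine therefore stayed out of the place lists, and both pairs out of the strand lists. The gene order was not used to add them.

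Named were the 10 most abundant anticodons, all past 2-fold and iMet-CAT; all mitochondrial tRNAs; the leading 2 families of an anticodon with at least 100 RPM, where a result turned on them; and the 5 most abundant, 8 highest and 8 lowest sequences. The members and lists were chosen with earlier results of these data known.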

Additional observations from a re-analysis of the deposited data

How the results depend on the processing

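Of 32 anticodons 5 were lower without His-GTG in the total, 5 with median-ratio or trimmed-mean scaling and 6 with 10 RPM added. With a filter of 100 RPM 4 of 20 were lower. Among reads of at least 70 nt 1 of 11 was lower and 2 were higher, with a median of 0.39. With sphere in place of shield 19 of 34 were lower. Higher anticodons numbered 1 of 32 with 10 RPM added and 1 of 20 with the 100 RPM filter. RPM, median-ratio and trimmed-mean scaling moved the median of the 32 anticodons by 0.08, 0.55 and 0.68, and higher ones were 22.2%, 28.6% and 37.5% of those past 2-fold against 16.7%. Median-ratio scaling centres the ratios by construction, so its counts do not test their direction. Higher amino acids numbered 1 of 16 with 10 RPM added and 1 of 13 with the 100 RPM filter. Lower ones numbered 5 of 19 with no filter, 1 of 13 with 100 RPM and 4 of 16 with CCA reads alone. With reads of at least 70 nt 1 of 10 was lower, and with sphere 7 of 16. Of 1759 single sequences 116 were higher without His-GTG, 247 with median-ratio scaling, 236 with trimmed-mean scaling and 24 with 10 RPM added. Lower ones numbered 423, 255 and 268 under those scalings. With no filter 87 of 3021 were higher and 1379 lower. With 100 RPM 11 of 375 were higher (2.93%, against 2.39%) and 118 lower (31.5%, against 40.5%). Lower families numbered 57 of 155 with a joining stretch of 45 bases, an alternative chosen after seeing the data. In RPM 0 mitochondrial tRNAs were higher and 19 lower. The mitochondrial share, at -1.32 on the log2 scale, was -1.35 of the whole library, -0.58 without His-GTG, -1.38 with 2 mitochondrial reads counted as 1 (chosen after seeing the data) and -2.51 with sphere. The scalings and filters change totals or the features compared; no other cause was tested. No paired analysis was possible because each stage has 1 library, and for the same reason no library could be left out. Depth limits Trp-CCA, Val-CAC, Thr-CGT and trnS1, which rest on few reads.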
